A study of Homo sapiens with 4 samples.

Results

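The nuclear genes of mitochondrial oxidative phosphorylation were examined after depletion of SSRP1 in BE(2)C, a human neuroblastoma cell line long kept in culture. Members were chosen by symbol, as protein-coding genes named for subunits or assembly factors of the respiratory complexes and of the ATP synthase (NDUF, SDH, UQCR, CYC1, COX and ATP5 families). Of 14812 genes named on the array, 36 symbols matched. The pseudogene UQCRBP1 and the noncoding RNA genes NDUFA6-DT and NDUFB2-AS1 were set aside, which left 33 members. RefSeq holds 104 protein-coding genes whose symbols match, and the other 71 were not analysed here. The 33 comprised 2 complex I assembly factors, 6 genes of complex III, 10 of the usual subunits of complex IV and 7 isoforms or relatives of these. They also comprised 5 copper and other assembly factors of complex IV and 3 genes of the ATP synthase. No subunit of complex I or complex II was among them, so the values below describe mainly complexes III and IV.

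The study had 2 groups of 2 samples, each hybridised to 1 whole-transcript array. Control cells carried a non-targeting siRNA, and treated cells carried siRNA against SSRP1, both delivered with the same lipid reagent, and RNA was taken 72 hours later. SSRP1 is a subunit of FACT, a histone chaperone that helps polymerases pass nucleosomes. All samples came from 1 line, and no label states that the 2 replicates of a group were grown separately. The p-values therefore refer to the spread of these samples alone, and that spread may be technical.

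Oxidative phosphorylation passes electrons from NADH and succinate through complexes I to IV to oxygen, and the proton gradient built on the way drives the ATP synthase. The complexes are mosaics of a few subunits made inside the mitochondrion and many more encoded in the nucleus, so nuclear transcripts have to be supplied in matching amounts. Neuroblastoma cells, like neurons, use both glycolysis and respiration for ATP.

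The knockdown and the identity of the cells were checked first. SSRP1 stood at a log2 value of 9.05 and 9.23 with control siRNA and at 7.42 and 6.97 after knockdown, which left 26.0% of the control level (95% interval 19.3 to 34.8%, limma adjusted p = 0.0479). That adjusted p was above the threshold of 0.05 under several other settings given at the end. Median log2 values of the 4 arrays ran from 3.37 to 3.42, and Pearson correlations between arrays over all probe sets ran from 0.990 to 0.993. All 12 measured sympathoadrenal markers of 15 fixed had control means between 6.69 and 10.8, above the median level of all genes (4.64). Over all genes 51.7% had a change below 0 and 12.6% an unadjusted p under 0.05 in limma. Of these 12 markers, 9 had a change below 0, and the shares were not tested against those of all genes. An unadjusted p under 0.05 was found for 5 of the 12, but none had a limma adjusted p under 0.05. The 5 were the noradrenaline synthesis genes DBH at -0.77 (58.5% of control, limma adjusted p = 0.111), TH at -0.34 and DDC at 0.43, the transcription factor gene HAND2 at -0.38 and the granule protein gene CHGA at 0.34. Of 21 markers of Schwann cells, fibroblasts, blood and endothelium 9 were measured. The fibroblast proteoglycan gene LUM had a control mean of 7.27 and a log2 change of 1.20 (limma adjusted p = 0.184), and the glial gene S100B had a change of 0.47 (limma adjusted p = 0.262). The 8 besides LUM had means of 2.62 to 5.16 with control siRNA and 2.57 to 5.33 with SSRP1 siRNA. The part of these marker changes in the results below was not tested. With 4 arrays the precision of every value is limited.

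No oxidative phosphorylation transcript passed the test between SSRP1 siRNA and control siRNA, which was a limma adjusted p under 0.05. Of the members 0 of 33 had such a p, which 0.0945% of all genes had (0.081% higher and 0.0135% lower). Only ATP5IF1, the inhibitor of the ATP synthase, had an unadjusted p under 0.05, and it was higher with SSRP1 siRNA. Among all genes 12.6% had such a p (6.56% higher and 6.03% lower), and 1 of 33 members is 3.03%. The lowest limma adjusted p of a member was 0.337. No test of the share of members was made, and a p that misses the threshold does not show that a transcript was the same in both groups. In bulk RNA, fewer cells of a kind and less RNA per cell cannot be told apart.

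The intervals give a bound on each change in measured signal. Measured levels with SSRP1 siRNA ran from 85.6% of control (COX7A2L) to 127% (ATP5IF1). The 95% interval lay within 2-fold of control in either direction for all 33 members, as it did for 97.5% of all genes. It lay within 1.5-fold for 31 members (93.9%), against 78.2% of all genes. The exceptions were ATP5IF1, whose interval reached 155% of control, and COX6A2, whose replicates were spread most, at 177%. Among genes at or above the median level of all genes, the interval lay within 1.5-fold for 96.0% of members and 81.3% of all genes. The differences between these shares were not tested. The intervals hold for each gene alone and rest on 2 residual degrees of freedom beside a prior of 3.79. By the mean over all 4 arrays, 8 of the 33 lay below the median level of all genes, where a value can reflect background as well as RNA. For such genes the interval may bound the signal without bounding the transcript.

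**Figure D1:**
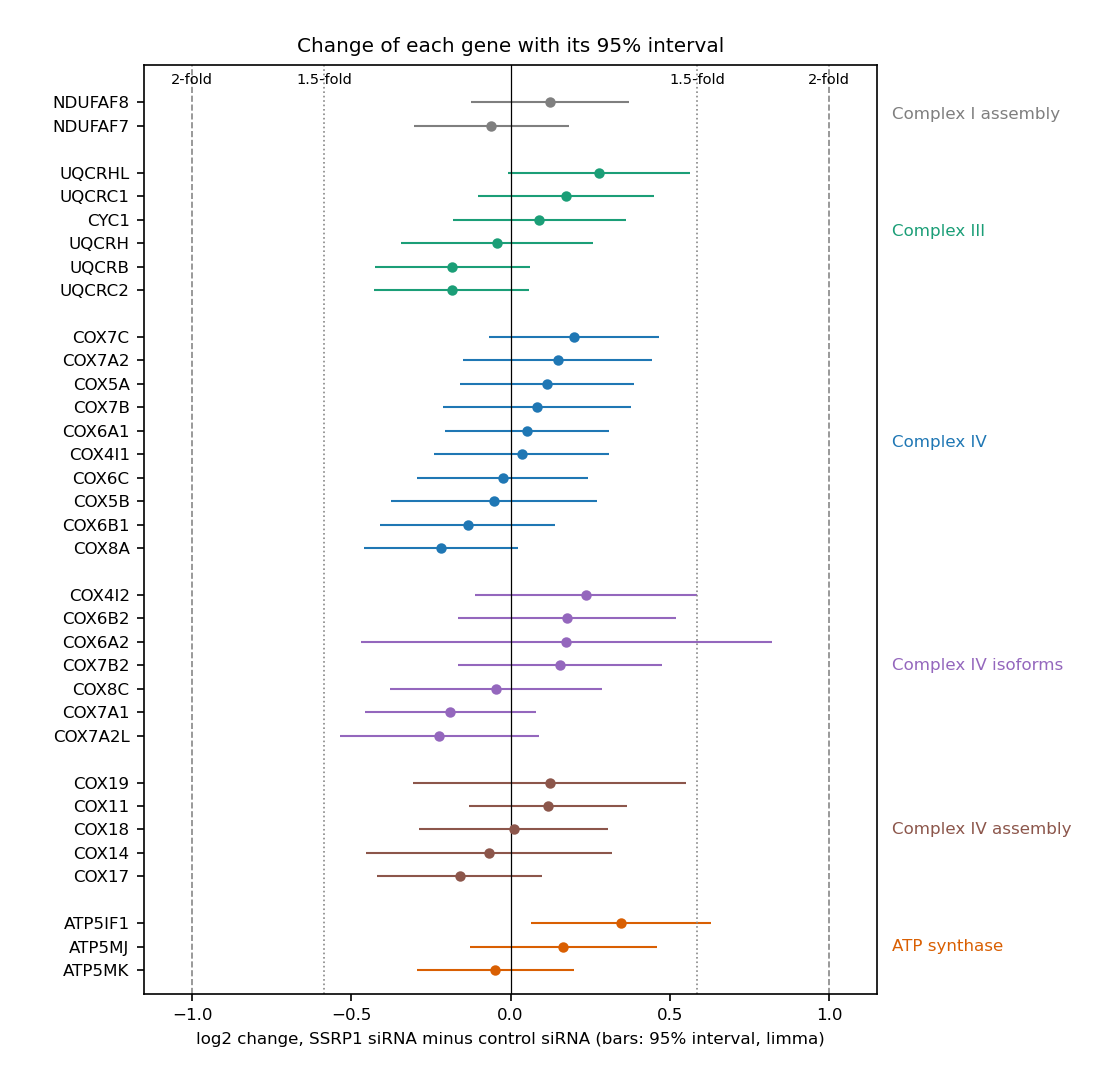
Log2 change of each of the 33 genes, SSRP1 siRNA minus control siRNA, with its 95% interval from limma (n = 2 arrays per group). Dotted lines mark 1.5-fold and dashed lines 2-fold; every interval except that of ATP5IF1 includes 0, and only those of ATP5IF1 and COX6A2 cross a dotted line.

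The changes ran in both directions. Of the 33 members 19 had a change above 0 and 14 below, with a median log2 change of 0.05, against a median of -0.01 and 48.3% above 0 over all genes. Their standard deviation was 0.15, against 0.23 over all genes, and the median size of change was 0.13 for members and 0.12 for all genes. A size above 0.25 was measured for 2 members (6.06%), ATP5IF1 and UQCRHL, against 19.8% of all genes. The 2 groups did not overlap for 17 members, 9 higher and 8 lower. Among all genes 21.8% were higher and 22.5% lower without overlap (44.3% in all), and the members' shares were 27.3% and 24.2%. Of the members 25 lay at or above the median level of all genes, and 36.0% of these were higher and 28.0% lower without overlap. Among all genes at or above that level the shares were 27.7% and 25.7%. The differences between these shares were not tested.

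**Figure D2:**
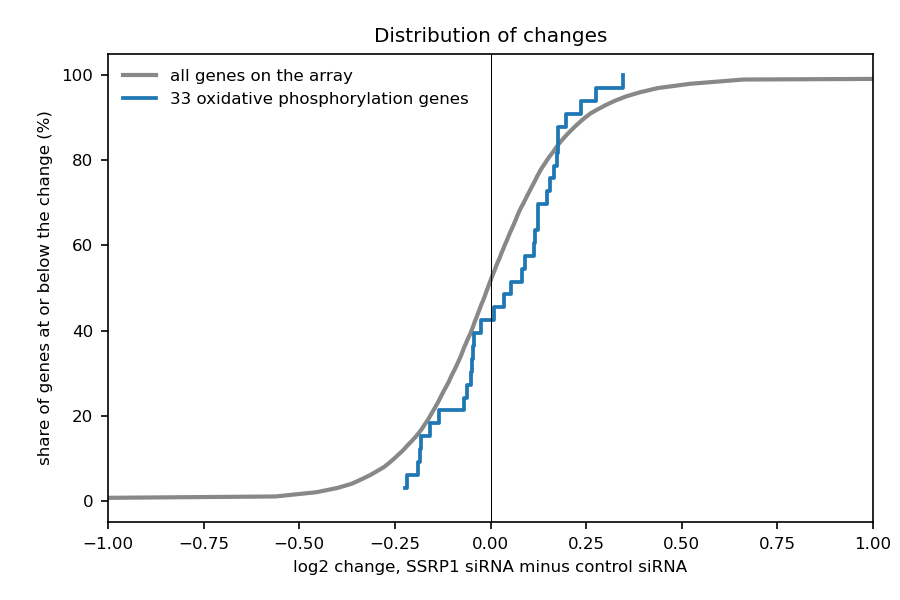
Cumulative share of genes (vertical axis, percent) at or below a given log2 change, SSRP1 siRNA minus control siRNA (horizontal axis), for all 14812 genes in grey and the 33 oxidative phosphorylation genes in blue. The horizontal axis is drawn from -1 to 1, and the blue steps run from -0.22 to 0.35 while the grey curve continues beyond both.

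The members stood highest on 1 array. For each gene the deviation from its mean over the 4 arrays was taken, and the median of these over the members was -0.03 and -0.01 for the controls, -0.03 on the first array of SSRP1 siRNA and 0.05 on the second. Thus the first SSRP1 siRNA array lay level with the controls, and the second stood higher. Of the 33 members 24 were higher on the second SSRP1 siRNA array than on the first, where 50.2% of all genes were. The median change over the members was 0.02 when SSRP1 siRNA replicate 2 was left out and 0.07 when replicate 1 was.

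**Figure D3:**
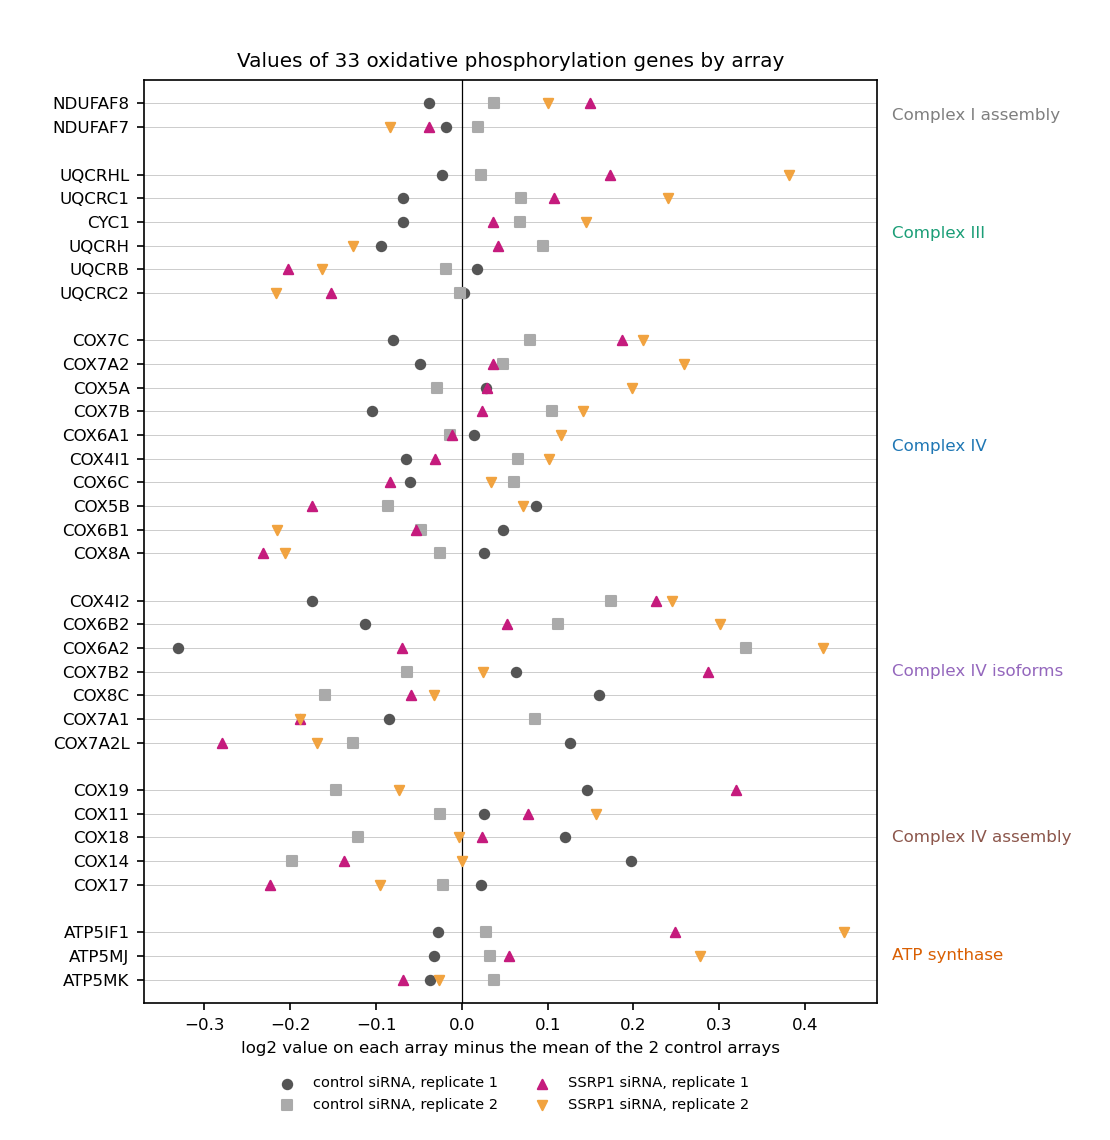
Log2 value of each of the 33 genes on each of the 4 arrays, minus the mean of the 2 control arrays for that gene. Circles and squares are the control arrays and triangles the SSRP1 siRNA arrays. The groups are clear of each other for 17 of the 33 genes, against 44.3% of all genes on the array. The second SSRP1 siRNA array lies to the right of the first for 24 of the 33, against 50.2% of all genes. These differences were not tested.

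Promoter sequence is shown for 4 members, the one with the largest change (ATP5IF1), the complex IV subunit with the largest negative change (COX8A) and the complex III core genes UQCRC1 and UQCRC2, whose changes had opposite signs. Many promoters of this gene class are known to bind nuclear respiratory factor NRF1 and the ETS factor GABP. RefSeq windows of GRCh38.p14, from 250 bases before to 50 bases after the start, were found for 26 of the 33 members. They were searched on both strands for an NRF1 site (GCGC, any 2 bases, GCGC) and an ETS core (CCGGAAG). Each line below gives the 250 bases before the start, 5′ to 3′ on the strand of the gene, in lower case with matches in capitals.
ATP5IF1 (chr1:28235874-28236123, plus strand): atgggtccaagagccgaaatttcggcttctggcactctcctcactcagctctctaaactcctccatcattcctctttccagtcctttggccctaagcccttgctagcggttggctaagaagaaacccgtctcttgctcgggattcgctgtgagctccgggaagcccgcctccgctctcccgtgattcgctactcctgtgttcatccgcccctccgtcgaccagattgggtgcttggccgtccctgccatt
COX8A (chr11:63974370-63974619, plus strand): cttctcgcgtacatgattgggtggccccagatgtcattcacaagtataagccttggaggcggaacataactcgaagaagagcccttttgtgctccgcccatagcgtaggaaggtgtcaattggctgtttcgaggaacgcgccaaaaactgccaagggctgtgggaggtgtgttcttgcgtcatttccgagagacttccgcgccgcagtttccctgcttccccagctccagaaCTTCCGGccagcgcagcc
UQCRC1 (chr3:48609647-48609896, minus strand): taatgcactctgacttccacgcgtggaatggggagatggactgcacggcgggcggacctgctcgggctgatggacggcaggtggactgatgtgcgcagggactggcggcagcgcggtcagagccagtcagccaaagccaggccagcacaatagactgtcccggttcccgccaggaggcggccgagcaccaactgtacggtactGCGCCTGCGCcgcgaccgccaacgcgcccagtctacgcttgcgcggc
UQCRC2 (chr16:21953111-21953360, plus strand): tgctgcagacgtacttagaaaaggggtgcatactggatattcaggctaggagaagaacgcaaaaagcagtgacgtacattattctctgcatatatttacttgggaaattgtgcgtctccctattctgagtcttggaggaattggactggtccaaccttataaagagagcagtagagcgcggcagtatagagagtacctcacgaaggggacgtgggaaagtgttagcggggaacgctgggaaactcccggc
The capitals in COX8A are the ETS letters read on the other strand, 18 bases before the start, and those in UQCRC1 are an NRF1 match 47 bases before it. ATP5IF1 and UQCRC2 had neither match in the window.

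Over the 26 members with a window, 9 held the ETS letters and 5 the NRF1 letters. In share this was 34.6% and 19.2%, against 12.2% and 9.98% of all 27305 genes with a window and 17.1% and 14.1% of the 10736 of these that the array measured. Members with several windows were counted once, with a match in any of them. COX17, which delivers copper to complex IV, was the 1 member that held both. The 5 usual complex IV subunits with the ETS letters were COX4I1, COX5B, COX6A1, COX6B1 and COX8A, of 9 with a window. The 9 members with the ETS letters had a median log2 change of -0.05 and a range of -0.22 to 0.12. The 5 with the NRF1 letters had a median of 0.01, and the 13 with neither had a median of 0.12 and a range of -0.22 to 0.35. Each range held changes of both signs. A match is a description of the letters, and the difference between these medians was not tested.

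Complex III transfers electrons from ubiquinol to cytochrome c. Its 6 measured genes split evenly, 3 above 0 and 3 below, with a median log2 change of 0.02. UQCRC1, a core protein of the complex, had log2 values of 7.88 and 8.02 with control siRNA and 8.06 and 8.19 with SSRP1 siRNA. Both SSRP1 siRNA arrays were above both controls, but by less than the gap between the controls, and the change was 0.17 ± 0.11 (SE, limma adjusted p = 0.588). UQCRC2, the other core protein, had values of 10.30 in both controls and of 10.15 and 10.09 with SSRP1 siRNA. It was lower on both, with a change of -0.18 ± 0.10 (SE, limma adjusted p = 0.521). The measured changes of the 2 core genes had opposite signs, but both 95% intervals included 0. The difference between these genes was not tested. UQCRB, a small subunit at the ubiquinone site, had values of 4.80 and 4.77 against 4.58 and 4.62. Its groups did not overlap either, with a change of -0.18 (limma adjusted p = 0.523). CYC1, the haem-bearing cytochrome of the complex, overlapped between groups with a change of 0.09, and its 95% interval ran from -0.18 to 0.36.

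UQCRH and UQCRHL are a pair of near-identical genes for the hinge protein that helps cytochrome c dock, UQCRHL being an intronless copy. UQCRHL had log2 values of 8.01 and 8.06 with control siRNA and 8.20 and 8.41 with SSRP1 siRNA. Both SSRP1 siRNA arrays were above both controls, with a change of 0.28 ± 0.12 (SE, unadjusted p = 0.0553, limma adjusted p = 0.409). UQCRH had values of 4.62 and 4.81 against 4.76 and 4.59, which overlap, with a change of -0.04 and a 95% interval of -0.34 to 0.26. Array probes for one copy may bind transcripts of the other, so which of the genes the UQCRHL value measures is uncertain.

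Complex IV, cytochrome c oxidase, hands the electrons to oxygen. The 10 usual nuclear subunits had a median log2 change of 0.04, 6 above 0 and 4 below. The groups did not overlap for 4 of them, 2 in each direction. Among all genes 44.3% did not overlap, 21.8% higher and 22.5% lower, and the share of the subunits was not tested against these. COX8A, one of the smallest subunits, had log2 values of 10.47 and 10.42 with control siRNA and 10.21 and 10.24 with SSRP1 siRNA. The distance between groups was several times that within them, and the change was -0.22 ± 0.10 (SE, 95% interval -0.46 to 0.02, limma adjusted p = 0.440). COX7C, another small membrane subunit, had values of 6.31 and 6.47 against 6.57 and 6.60. Its groups did not overlap, with a change of 0.20 ± 0.11 (SE, limma adjusted p = 0.526). COX6B1, which sits on the outer face where cytochrome c binds, had values of 7.91 and 7.82 against 7.81 and 7.65, and COX5A, a matrix-side subunit, 10.37 and 10.31 against 10.37 and 10.54. In both the groups were separated by less than the gap between their own replicates, with changes of -0.13 and 0.11.

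The other 6 complex IV subunits overlapped between groups. COX4I1, the subunit through which ATP regulates the enzyme, had a change of 0.04 and a 95% interval of -0.24 to 0.31. COX7A2 and COX7B had changes of 0.15 and 0.08, COX6C and the zinc-binding subunit COX5B changes of -0.03 and -0.05. COX6C had a control mean of 4.03, below the median level of all genes, where a value can reflect background as well as RNA. COX6A1 had a change of 0.05 from probe set 17008088, at 11.0 in both groups. A second COX6A1 probe set, 16757886, was near the lowest values of the array (1.46 and 1.51) with a change of 0.05 as well. COX6A1 lies on chromosome 12, where the named neighbours of the second set in number, SIRT4 and RNF10, also lie. The neighbours of the first, C6orf89 and PIM1, are genes of chromosome 6, so which copy of the sequence the first set measures is uncertain.

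Several complex IV subunits have isoforms made mainly in other tissues, and 7 isoforms or relatives were measured. Their control means ran from 2.12 to 5.30, and by the mean over all 4 arrays 5 of them lay below the median level of all genes, where a value can reflect background as well as RNA. Of the 7, 4 had a change above 0 and 3 below, with a median log2 change of 0.16 that lay between -0.06 and 0.09 without any 1 array. COX4I2, the lung and low-oxygen isoform of COX4I1, had log2 values of 4.35 and 4.70 with control siRNA and 4.75 and 4.77 with SSRP1 siRNA. The SSRP1 siRNA arrays lay close to the higher control, and the change of 0.24 ± 0.14 (SE, limma adjusted p = 0.561) became 0.06 when control replicate 1 was left out and 0.41 when control replicate 2 was. COX7A1, the heart and skeletal muscle isoform of COX7A2, had values of 2.70 and 2.87 against 2.59 on both SSRP1 siRNA arrays, a change of -0.19. COX6A2, also of striated muscle, had values of 3.59 and 4.25 against 3.85 and 4.34, so its replicates differed by more than its groups did. The testis isoforms COX6B2, COX7B2 and COX8C had changes of 0.18, 0.16 and -0.05, and all 3 overlapped between groups.

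COX7A2L, a relative of the COX7A subunits that joins complex III to complex IV in supercomplexes, had the most negative change of the 33. Its log2 values were 5.42 and 5.17 with control siRNA and 5.02 and 5.13 with SSRP1 siRNA. The groups did not overlap, but control replicate 2 lay next to SSRP1 siRNA replicate 2, and the change was -0.22 ± 0.13 (SE, 95% interval -0.54 to 0.09, limma adjusted p = 0.539). Leaving out control replicate 1 gave -0.10, and leaving out control replicate 2 gave -0.35.

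The assembly factors of complex IV insert its copper and haem and guide its mitochondrially made subunits. The 5 measured had a median log2 change of 0.01, 3 above 0 and 2 below. COX17, the copper chaperone that feeds the insertion pathway, had log2 values of 5.25 and 5.21 with control siRNA and 5.01 and 5.14 with SSRP1 siRNA. It was lower on both arrays, with a change of -0.16 ± 0.10 (SE, limma adjusted p = 0.596). COX11, which takes part in copper insertion into the subunit COX1, had values of 6.89 and 6.84 against 6.94 and 7.02, a change of 0.12. COX19, a further factor of copper handling, had values of 4.33 and 4.03 against 4.50 and 4.11. Its first replicate was the higher in both groups, and its change of 0.12 had an interval of -0.30 to 0.55. COX18, which exports a tail of the subunit COX2, and COX14, which couples synthesis of COX1 to assembly, had changes of 0.01 and -0.07 with overlapping groups. COX19 and COX14 lay below the median level of all genes, where a value can reflect background as well as RNA.

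Complex I was represented only by a pair of assembly factors. NDUFAF8, which supports complex I assembly, had log2 values of 7.87 and 7.94 with control siRNA and 8.06 and 8.01 with SSRP1 siRNA, a change of 0.12 ± 0.10 (SE, limma adjusted p = 0.672). NDUFAF7, a methyltransferase that modifies a core subunit early in assembly, had values of 6.93 and 6.97 against 6.91 and 6.87, a change of -0.06. Neither gene's groups overlapped, and they pointed in opposite directions.

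The ATP synthase was represented by its inhibitor and 2 small membrane subunits. ATP5IF1 binds the enzyme and blocks ATP hydrolysis when the proton gradient falls. Its log2 values were 6.41 and 6.47 with control siRNA and 6.69 and 6.89 with SSRP1 siRNA. Both SSRP1 siRNA arrays were above both controls, by more than the gap between replicates, with a change of 0.35 ± 0.11 (SE, 95% interval 0.06 to 0.63, unadjusted p = 0.0240, limma adjusted p = 0.337). Without any 1 array the change lay between 0.25 and 0.44, and its unadjusted p was under 0.05 only when SSRP1 siRNA replicate 1 was the array left out. ATP5MJ, a small proteolipid of the enzyme, had values of 6.02 and 6.09 against 6.11 and 6.33. Its groups were next to each other, with a change of 0.17 ± 0.12 (SE, limma adjusted p = 0.630). ATP5MK, a small subunit that takes part in dimer formation, had values of 7.45 and 7.53 against 7.42 and 7.46, a change of -0.05 with overlapping groups.

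Genes that work beside these complexes were compared in the same fit. No gene of the 5 related lists had a limma adjusted p under 0.05. The counts given for all 5 lists stand beside 48.3% of all genes with a change above 0. They also stand beside 12.6% of all genes with an unadjusted p under 0.05 in limma. The shares of the lists were not tested. Of 38 measured assembly factors outside the family names (of 45 listed), 16 had a change above 0, the median log2 change was -0.04, and 1 had an unadjusted p under 0.05. This was DMAC2, a factor of complex I assembly, with log2 values of 8.43 and 8.30 against 8.10 and 7.92 and a change of -0.36 (limma adjusted p = 0.333). Of 10 measured regulators of mitochondrial biogenesis (of 23 listed), 7 were above 0, with a median of 0.03, and 2 had an unadjusted p under 0.05. MTERF1, a factor that ends transcription on mitochondrial DNA, had values of 3.74 and 3.42 against 3.95 and 4.25, a change of 0.52 ± 0.16 (SE, limma adjusted p = 0.320). Its values lay below the median level of all genes (4.64), where a value can reflect background as well as RNA. The other was ESRRA, a nuclear receptor that drives genes of oxidative metabolism, which had a change of -0.29 (limma adjusted p = 0.394), and the respiratory factor NRF1 a change of 0.10 (limma adjusted p = 0.774).

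The citric acid cycle list held 10 measured genes of 18, 8 of them above 0, with a median log2 change of 0.06. DLST, a subunit of the oxoglutarate dehydrogenase complex, had log2 values of 7.61 on both control arrays against 7.41 and 7.11, a change of -0.35 (limma adjusted p = 0.368). It was the change of largest size in that list, with the sign opposite to that of 8 members, and the only one with an unadjusted p under 0.05. Of 15 measured genes of cytochrome c, coenzyme Q and carriers (of 30 listed), 6 were above 0, with a median of -0.03, and 1 had an unadjusted p under 0.05. This was HCCS, the enzyme that attaches haem to cytochrome c, with values of 7.95 and 7.85 against 8.24 and 8.20 and a change of 0.32 ± 0.10 (SE, limma adjusted p = 0.327). Of 9 measured glycolysis genes (of 22 listed), 7 were above 0, with a median of 0.10 and no unadjusted p under 0.05. HK1, the first enzyme of the pathway, had the smallest p, with a change of 0.16 (limma adjusted p = 0.566).

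**Figure D4:**
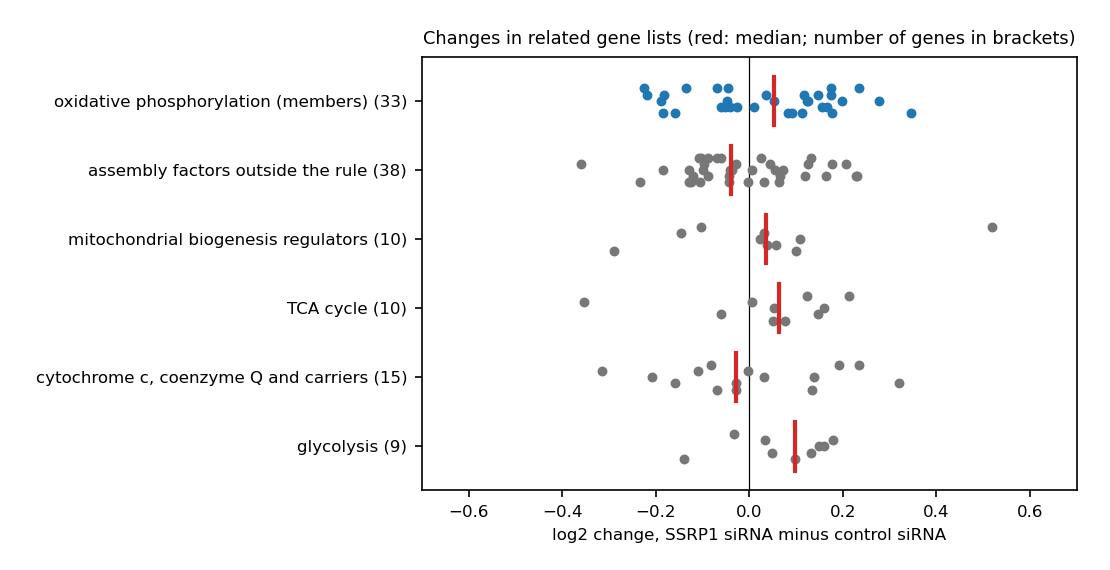
Log2 change of each measured gene, SSRP1 siRNA minus control siRNA, in the oxidative phosphorylation members (blue) and 5 related lists (grey), with the median of each list in red and points offset vertically for legibility. The medians lie between -0.04 and 0.10. MTERF1 at 0.52, whose values lay below the median level of all genes, is the point farthest from 0.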

How the data were processed

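Biotin-labelled RNA (100 ng for each of the 4 samples) was measured on Affymetrix whole-transcript arrays, per the labels' protocols. The authors deposited log2 values per probe set, for which the submitters' processing notes name RMA. The software and the build were not given in the sources used here. The log2 scale was read from the values (0.50 to 12.8). RMA as usually run makes the arrays' distributions alike, so a shift of all transcripts would not be visible. The table has 46255 probe sets, of which 15835 carry 1 symbol, 0 carry several and 30420 none here. Gene IDs and biotypes came from RefSeq (GRCh38.p14). Where a gene had more than 1 (651 genes), the probe set of highest mean represented it.

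limma 3.58.1 in R 4.3.3 (lmFit, eBayes without trend) was fitted to all 14812 genes, SSRP1 siRNA minus control siRNA, with Benjamini-Hochberg adjustment over all of them and a call at an adjusted p under 0.05. All tests are two-sided, and ± after a change is its standard error. The script was tested on simulated data. Members, lists and settings were chosen with earlier results of these data known. Named with values were, in each complex, the largest positive and negative change, all complex IV isoforms, members with an unadjusted p under 0.05 and the smallest p of each related list; the remaining members were added for completeness. ATP5MC1, ATP5MC2 and ATP5MC3, the fixed list of mitochondrially encoded genes and the muscle markers are not analysed here. SUPT16H, the partner of SSRP1, had a log2 change of -0.07. Other settings are given in the closing section.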

Additional observations from a re-analysis of the deposited data

How the results depend on the processing

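No member had a limma adjusted p under 0.05 under any of the 8 settings that used all arrays, at an adjusted p under 0.1, or without any 1 array. The lowest adjusted p of a member under the settings tried was 0.124 (COX8A, variance trend). Members higher at an unadjusted p under 0.05 numbered 1, and 2 with a variance trend, when only brighter genes (at or above the median level) were fitted or with the replicate number as a block (the second being UQCRHL each time), and 0 to 2 without 1 array. Members lower numbered 0, and 2 with a variance trend (COX8A, UQCRC2) and 1 among genes at or above the median level (COX8A). The share of all genes at such a p was 12.6%, and 14.3% with a variance trend, 20.8% among genes at or above the median level and 13.9% with the block, so it rose under these settings too. Among genes at or above the median level, where 2 isoforms remain, the isoform median was 0.0057, against 0.16.

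All genes past the test numbered 14. The count was 41 at an adjusted p under 0.1, 0 over all probe sets (lowest adjusted p 0.0783 in limma, 3854 at an unadjusted p under 0.05), 179 among genes at or above the median level, 25 after quantile normalization, 9 with robust variances and 215 with a variance trend. With the replicate block it was 6; same-numbered arrays deviated together with a correlation of 0.114 over genes, and with 2 pairs the numbers are not shown to pair the samples. Without any 1 array it was 0 (1200 to 1672 genes at an unadjusted p under 0.05 in limma). The SSRP1 change stayed at -1.95 with a limma adjusted p of 0.144 over all probe sets, 0.0569 with the replicate block and 0.0512 with robust variances, and lay between -2.17 and -1.72 without 1 array (limma adjusted p 0.241 to 0.599).

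Without 1 array, medians ran from -0.021 to 0.11 in the usual complex IV subunits (lowest when replicate 2 of the SSRP1 siRNA arrays was left out, highest when replicate 1 was), from -0.057 to 0.11 in complex III (lowest without control replicate 1, highest without control replicate 2), from -0.11 (without control replicate 2) to 0.13 (without control replicate 1) in complex IV assembly factors and from -0.059 (without SSRP1 siRNA replicate 2) to 0.092 (without control replicate 2) in complex IV isoforms, so none of these has a settled direction. Over all 33 members the median stayed above 0 without any 1 array (0.02 to 0.07). It did so too over the 3 ATP synthase genes (0.054 to 0.28) and the 2 complex I assembly factors (0.0038 to 0.060), which are few. Of the 33 members 22 kept their sign without each array in turn. Among those named by rule, COX19 ranged from -0.073 to 0.32, COX6A2 from -0.16 to 0.51 and COX8C from -0.21 to 0.11. With all arrays, COX4I1 and COX18 changed sign under at least 1 setting. The second COX6A1 probe set, tried after the data were seen, lies near the lowest values of the array, so it says nothing about the stability of the medians. Changes of the size measured here are close to the median standard error (0.117), which limits what 4 arrays can show.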
